A study of Caenorhabditis elegans with 6 samples.

Results

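The 9 genes described here, vang-1, fmi-1, lit-1, pop-1, bar-1, lin-17, mig-1, cfz-2 and cam-1, belong to the Wnt and planar cell polarity pathways of Caenorhabditis elegans. They are 9 of 19971 protein-coding genes on the nuclear chromosomes. A peak was counted for a member when its summit lay inside the gene's span, or nearer to an end of that gene than to an end of any other protein-coding gene. The members were chosen by pathway with the presence and fold of their peaks in these lists already known, so these values are a description and were not tested.

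Open chromatin was mapped by ATAC-seq, a method that marks accessible DNA by the insertions of a transposase, in nuclei of mixed-stage worms that were mostly larvae. All animals were of the strain OH11061 and carried the transgene otIs381, a pan-neuronal reporter that puts GFP into nuclei. Nuclei with GFP and DAPI (a DNA stain) signal make up the neuronal group. Nuclei gated by DAPI only make up the total group, which therefore includes neuronal nuclei. Each group had 3 samples of 50000 nuclei, and the authors deposited 1 peak list per group, with 2313 neuronal and 2683 total peaks, called here the neuronal and the total list. The lists hold no value per sample, so no difference between them was tested against replicates.

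As a check of the labels, peaks were assigned to 5 of 15 pan-neuronal marker genes in the neuronal list and to 8 in the total list, rab-3 not among them. Over all protein-coding genes the shares were 11.3% and 13%. The neuronal list thus held fewer pan-neuronal markers than the total list, so this count does not bear out the neuronal label. Body-wall muscle markers had a peak for 1 of 7 in the neuronal and 3 of 7 in the total list. In each list, intestinal markers had a peak for 1 of 6 and germline markers for 1 of 6. The germline gene differed between the lists, which held either glh-1 or syp-2. Glial markers had a peak for 1 of 4 in each list, lit-1 itself. As lit-1 is a member chosen with its peaks known, the glial count is no check of the labels. The 7 epidermal and 5 pharyngeal markers had none in either list. Read depth per sample was not analysed here. The reads over each summit (the pileup), recovered from the deposited fold and p-value, had a median ratio of 1.48, neuronal to total, over the 2199 peaks that pair one to one.

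Wnt proteins are secreted ligands that bind Frizzled receptors and co-receptors on the cell surface. In the canonical branch a beta-catenin reaches the nucleus and works with a TCF factor, and in the worm's asymmetry branch a kinase lowers the nuclear level of that TCF factor unequally in daughter cells. The planar cell polarity branch orients cells and neurites along an axis through membrane proteins such as Van Gogh and Flamingo. In worm neurons these pathways are known for guiding migrating neuroblasts, axons and the polarity of neurites along the body.

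Peaks were found at 4 of the 9 genes. In the neuronal list 3 members had a peak, fmi-1, lit-1 and pop-1, against 11.3% of all protein-coding genes. In the total list the same 3 and vang-1 had one, against 13% of all genes. For either list the share over all genes was 13.5%. Members are long genes, from 3.37 kb (cfz-2) to 22.4 kb (lit-1) against a median of 2.01 kb. Among the 5304 protein-coding genes within the members' range of length, 23.7% had a peak in either list, and the part of length in the members' share was not tested. Each list held 5 member peaks, of which 4 were shared, 1 was in the neuronal list alone (at lit-1) and 1 in the total list alone (at vang-1). Over all peaks, 4.11% of the neuronal list and 17.4% of the total list had no overlap of at least 1 bp with the other list. A peak missing from a list did not pass the authors' reproducibility threshold, which does not show the site to be closed.

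**Figure D1:**
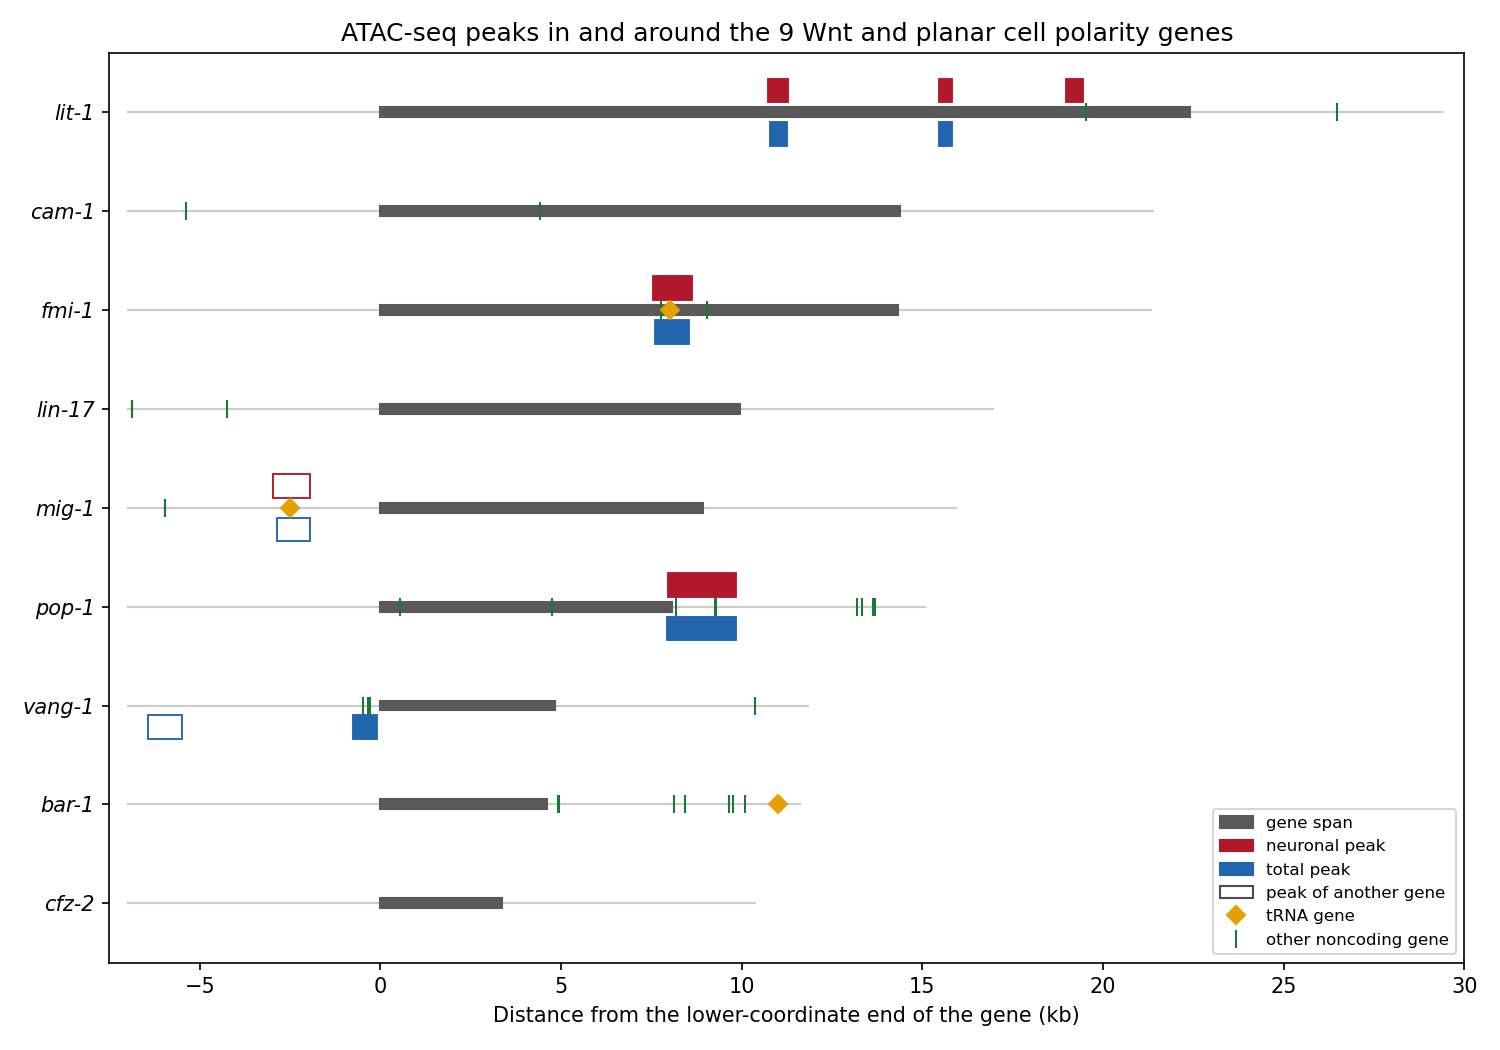
Map of the 9 genes, longest at the top, to a common scale in kb from the gene's lower-coordinate end and with 7 kb on each side. Red bars above a gene are neuronal peaks, blue bars below it are total peaks, open bars are peaks nearer to another gene, diamonds are tRNA genes and green ticks other noncoding genes. Filled bars appear at lit-1, fmi-1, pop-1 and vang-1, and cam-1, lin-17, mig-1, bar-1 and cfz-2 have none.

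The planar cell polarity gene vang-1 (CELE_B0410.2, chromosome X from 2885858 to 2890681), which encodes a Van Gogh membrane protein, had a peak in the total list alone. This peak ran from 2885108 to 2885766, a width of 659 bp, and its summit lay 390 bp outside the gene's lower-coordinate end. The authors' fold enrichment, a ratio of the reads at the summit to the local background, was 12.3, the 4th highest of the 467 peaks in the total list alone. By the authors' −log10 p-value of 625 it ranked 7th among those 467. It stood at percentile 37.8 by p-value within its own list, where most peaks had a partner. Of the 269 total peaks within 5 percentile points of it by p-value, 259 (96.3%) were shared with the neuronal list. By pileup the vang-1 peak stood lower, at percentile 21.5, and no share was computed for peaks of like pileup. Its absence from the neuronal list was known when vang-1 was chosen, so this share is a description only.

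The neuronal list had no peak close to vang-1. The nearest neuronal summit was 33312 bp below the gene and belonged to the kinase gene kin-29. A neighbouring peak behaved in the same way: 6123 bp below vang-1, near F53B3.5, the total list held a peak from 2879433 to 2880379 with a fold of 11.4 that also had no neuronal partner. The pileup at the vang-1 summit was 893 reads, at percentile 21.5 of the total list. Its local background was 71.5, at percentile 9.50 and close to the lowest background of that list, 69.1. The high fold rank of this peak is thus a ratio to a low background. The RefSeq table places 3 short noncoding RNA genes under the vang-1 peak, and the summit lies inside 1 of them, F53B3.12, which is 139 bp long.

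The gene fmi-1 (CELE_F15B9.7, chromosome V from 13019061 to 13033401) encodes the Flamingo-type cadherin of the worm, which acts in axon guidance. It had 1 peak, present in both lists, from 13026594 to 13027681 in the neuronal list and from 13026668 to 13027606 in the total list. Both summits were at the same base, 6307 bp from the nearer gene end and 56.0% of the way along the gene from its lower-coordinate end. Fold enrichment was 9.69 in the neuronal list and 10.2 in the total list, both below the list medians of 10.5 and 10.7. The peak was wider in the neuronal list, at 1088 bp against 939 bp, and the medians of the lists were 799 bp and 823 bp.

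The fmi-1 summit falls on a tRNA gene. W07G4.t1, a tRNA gene of 73 bp from 13027028 to 13027100, holds the summit of both lists 66 bp from its start, and the noncoding RNA gene W07G4.10 also lies under the peak. Summits inside a tRNA gene made up 5.27% of all neuronal peaks (122 peaks) and 4.51% of all total peaks (121 peaks). Of these, 54 neuronal and 53 total peaks also lay inside a protein-coding gene, as at fmi-1. The median fold of tRNA peaks was 11.7 in the neuronal list and 12.5 in the total list, and the fmi-1 peak was below the lower quartile of both groups, 9.72 and 10.9. Whether the openness at fmi-1 belongs to the cadherin gene or to the tRNA gene was not tested.

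The fmi-1 peak was also among the lowest by reads. Its pileup was 1078 reads in the neuronal list, at percentile 1.99 of that list, and 713 reads in the total list, at percentile 4.83. The local background was 110.3 and 69.1, the lowest value of each list. That value was not particular to fmi-1, as 160 neuronal (6.92%) and 203 total peaks (7.57%) stood at it. The fold at this gene is thus a ratio of few reads to the lowest background.

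The gene lit-1 (CELE_W06F12.1, chromosome III from 13701993 to 13724404) encodes a Nemo-like kinase that acts on POP-1 in asymmetric division. It carried more peaks than any other member, 3 in the neuronal list and 2 in the total list. All of them lay inside the gene, which RefSeq lists with 5 transcripts. Only 20 genes, 0.1% of all protein-coding genes, had 3 or more neuronal peaks. That share is over genes of any length, and lit-1 stands at percentile 99.2 by length. The part of length in its number of peaks was not tested. The summits were 11004, 15636 and 19224 bp from the lower-coordinate end, and the one closest to an end was 3187 bp from it. Summits inside a gene and at least 3000 bp from any gene end were 6.44% of neuronal and 6.56% of total peaks.

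The first lit-1 peak was wider and its fold higher in the neuronal list. It ran from 13712732 to 13713267 with a fold of 7.10 in that list, and from 13712772 to 13713247 with a fold of 6.48 in the total list. The ratio of the folds, 1.09, was the highest of the 4 shared member peaks and above the 95th percentile of all 2199 shared peaks, 1.04, whose median was 0.942. The pileup was 2244 reads in the neuronal list and 1378 in the total list, a ratio of 1.63 against 1.48 over all shared peaks. The 95th percentile of that ratio was 1.68, so by reads the peak was not beyond the bulk of shared peaks.

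The second lit-1 peak was nearly the same in both lists. It ran from 13717452 to 13717812 in the neuronal list and to 13717807 in the total list, with 1 summit position. Fold was 6.67 in the neuronal list and 7.19 in the total list, a ratio of 0.928, and the pileup was 2740 and 1957 reads, a ratio of 1.40. The 2 shared peaks of this gene thus lay on opposite sides of the median fold ratio. At 361 bp and 356 bp it was among the narrowest peaks, at percentiles 0.951 and 1.27 by width.

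The third lit-1 peak was in the neuronal list alone and was weak. It ran from 13720970 to 13721436 with a fold of 4.97 and a −log10 p-value of 533, at percentiles 1.04 and 0.346 of that list. Its score, the authors' scaled reproducibility value, was 432, where the lowest score in the list was 415 and 90.1% of the peaks had 1000. Of the 123 neuronal peaks within 5 percentile points of it by p-value, 67 (54.5%) were shared, which is a description only. It ranked 89th by fold among the 95 peaks of the neuronal list alone.

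Low fold at lit-1 went with a high local background. All 5 lit-1 peaks had a fold under 7.5, as did 13.8% of neuronal and 13.4% of total peaks. Their local background was 2.75 to 3.71 times the lowest of the list in neuronal and 3.06 to 3.93 times in total nuclei. A background of at least 2.5 times the lowest was found for 16% of the peaks of either list. By reads the shared lit-1 peaks were above most others, at percentiles 64.7 and 79.9 by pileup in neuronal and 61.9 and 84.7 in total nuclei. Ranked by fold the same peaks stood between percentiles 5.93 and 11.1.

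**Figure D2:**
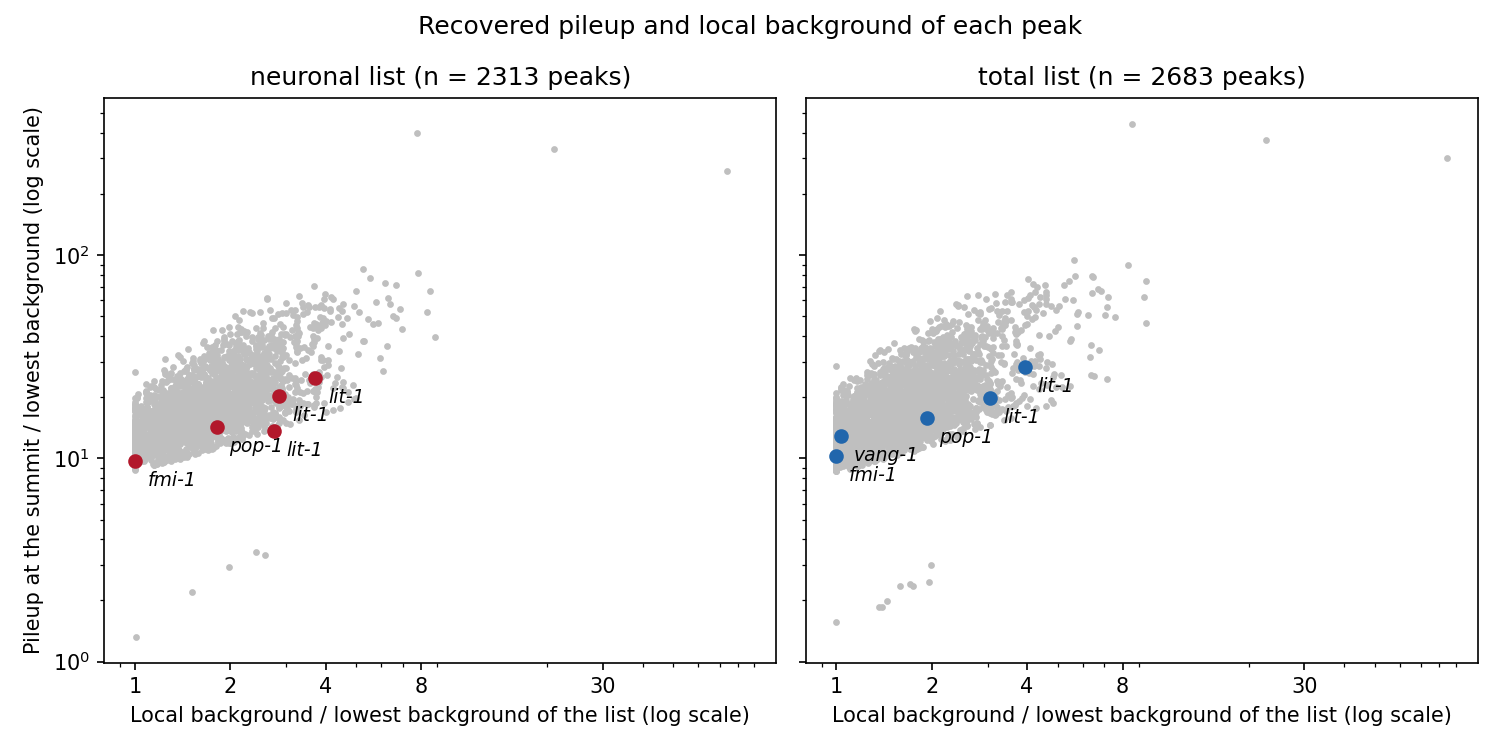
Pileup at the summit against local background, both divided by the lowest background of the list and on log scales, for the 2313 neuronal (left) and 2683 total peaks (right). Grey points are all other peaks and coloured points the member peaks. The fmi-1 peak sits at the lowest background in both panels, and the lit-1 peaks lie to the right, at 2.75 times the lowest background or more.

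The gene pop-1 (CELE_W10C8.2, chromosome I from 2822231 to 2830311) encodes the worm's TCF factor, which LIT-1 phosphorylates. It had 1 wide peak in both lists, from 2830183 to 2832085 in the neuronal list and from 2830173 to 2832084 in the total list. The summit was at the same base in both, 1295 bp outside the higher-coordinate end, while 129 bp of the neuronal and 139 bp of the total peak reached into the gene. The widths of 1903 bp and 1912 bp were at percentiles 96.8 and 97.1 of their lists. Fold was 7.81 in the neuronal list and 8.18 in the total list, a ratio of 0.955. The pileup was 1571 and 1097 reads, a ratio of 1.43. The summit lies inside W10C8.8, a noncoding RNA gene of 370 bp, and 2 further noncoding RNA genes lie under the peak.

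The other member of the canonical branch, the beta-catenin gene bar-1 (CELE_C54D1.6, chromosome X from 7166005 to 7170625), had no peak. Its closest neuronal summit was 11131 bp beyond its higher-coordinate end, at a peak near F43E12.1 with a fold of 10.2 that was in the neuronal list alone. The closest total summit was 23586 bp away and belonged to the chaperone gene dnj-7. A tRNA gene, F43E12.t1 (7176983 to 7177054), lies between bar-1 and that neuronal peak, and no peak was found on it.

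None of the 4 receptor genes had a peak. These were the Frizzled genes lin-17 (CELE_Y71F9B.5, chromosome I from 2707598 to 2717549), mig-1 (CELE_Y34D9B.1, chromosome I from 948569 to 957506) and cfz-2 (CELE_F27E11.3, chromosome V from 3441504 to 3444877), and the Ror receptor kinase gene cam-1 (CELE_C01G6.8, chromosome II from 9295915 to 9310304). All 4 act in neuronal migration or axon guidance. They span 3.37 to 14.4 kb. The longest of them, cam-1, is about as long as fmi-1, which had a peak. The part of length in which members had a peak was not tested. Among protein-coding genes within the members' range of length, 23.7% had a peak in either list. With that share, the lack of a peak at these 4 genes is not a result about the receptors.

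The receptor closest to a peak was mig-1, but that peak lay nearer to another gene. A shared peak from 945594 to 946607 in the neuronal list had its summit 2439 bp below mig-1 but 1580 bp from the protease gene nas-30. Its fold was 10.5 in the neuronal list and 11.2 in the total list. The summit lay 15 bp from the tRNA gene Y95B8A.t1 in the neuronal list and 16 bp in the total list. When gene spans were widened by 2000 bp its summit still lay outside that of mig-1. The closest total peak to lin-17, 9222 bp beyond the gene and near Y71F9B.6, had a fold of 5.38 and no neuronal partner, and the closest neuronal summit was 18687 bp away near cpz-1. The closest summit to cam-1 was 13004 bp away in both lists, at a shared peak near gldi-3 with a fold of 12.8 in the neuronal list. The gene cfz-2 was the most isolated, with the closest neuronal summit at 53017 bp and the closest total summit at 50292 bp, both near T20D4.15.

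Shared member peaks had the same place in both lists. The summit was at the same base for 3 of the 4 and 2 bp apart for the first lit-1 peak. Over all 2199 shared pairs 52.5% had the same summit. The fold ratio of neuronal to total ran from 0.928 to 1.09 with a median of 0.953, and the 5th to 95th percentiles of all shared peaks were 0.847 and 1.04. Ranked by fold among the shared peaks, the member peaks moved by a median of 1.91 percentile points, neuronal minus total, with a range from -1.05 to 5.09. Over all shared peaks the median was 0.0455 and the quartiles were -3.27 and 3.39. For 1 of the 4 member pairs, and for 48.8% of all shared pairs, the percentile was lower in the neuronal list. Ranked by pileup the median of the 4 was -1.22, so the direction turned with the measure.

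**Figure D3:**
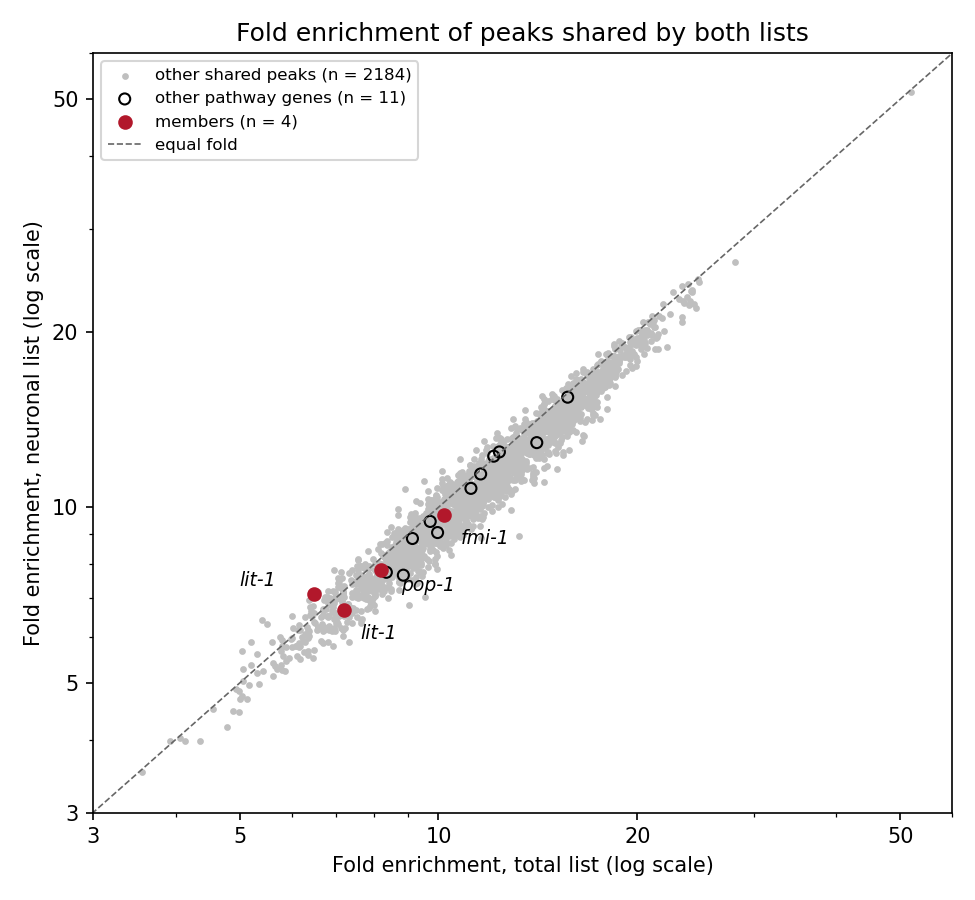
Fold enrichment in the neuronal list against that in the total list for the 2199 shared peaks, on log scales. Red points are the 4 member pairs, open circles the 11 pairs of other pathway genes and grey points the remaining peaks, and the dashed line marks equal fold. The first lit-1 peak, with a fold of 7.10 against 6.48, is the member pair above the line.

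The member peaks lay mostly inside the genes, at 4 of 5 in the neuronal and 3 of 5 in the total list, all of them at lit-1 or fmi-1. The single gene lit-1 gave 3 of these neuronal and 2 of these total peaks. Over all peaks the summit was inside a protein-coding gene for 27.4% and 27.1%. That share is over genes of any length, while lit-1 and fmi-1 stand at percentiles 99.2 and 97.7 by length. The part of length was not tested. The summit was inside a noncoding gene other than a piRNA gene for 2 of 5 neuronal and 3 of 5 total member peaks. The share over all peaks was 14.8% in the neuronal list and 13.6% in the total list. When peaks could be assigned to genes of any kind, vang-1 and pop-1 lost their peaks to these noncoding genes, and 2 of 9 members, fmi-1 and lit-1, had a peak.

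Beyond the 9 members, 45 further genes of the pathways were followed, and 12 of them had a peak in either list (10 in the neuronal list and 12 in the total list). This is 26.7%, against 13.5% of all protein-coding genes and 23.7% of those within the 9 members' range of length. The 45 genes fall partly outside that range. Those with a peak span 1.126 to 58.91 kb, and the shortest without one is 2.085 kb. The genes with a peak had a median length of 5.17 kb and those without one 4.27 kb, against 2.01 kb over all genes. The part of length in this share was not tested. None of the 5 ligand genes, egl-20, lin-44, cwn-1, cwn-2 and mom-2, had a peak, nor did the secreted inhibitor gene sfrp-1. The receptors mom-5 and lin-18 had none. With 13.5% of all genes having a peak, 0 of 5 is not a result about the ligands. In the same group as mom-5 and lin-18, plr-1, a transmembrane ubiquitin ligase that removes Wnt receptors from the surface, had a peak. That peak was in the total list alone, 1405 bp outside the gene, with a fold of 9.80.

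In Wnt secretion, mom-1, the Porcupine gene, had a shared peak inside the gene with a fold of 12.4 in both lists. The sorting nexin gene snx-3 had a peak in the total list alone, with a fold of 7.68 and a score of 416, next to the lowest score of 415. Among 3 Dishevelled genes mig-5 had a shared peak, with a fold of 9.05 in the neuronal list and 9.97 in the total list. In the destruction complex, pry-1, an Axin, had folds of 8.84 and 9.13, and kin-19, a casein kinase, had 12.2 and 12.1, neuronal before total. The axl-1, apr-1 and gsk-3 genes had none.

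The beta-catenin gene sys-1, whose product is the coactivator of POP-1 in asymmetric division, had a shared peak beyond each of its ends. The summit outside the lower-coordinate end was 200 bp away, with folds of 7.74 and 8.34, and the summit outside the higher-coordinate end was 297 bp away, with folds of 10.8 and 11.2, neuronal before total. The pileup at the second was 3577 and 2389 reads. The other beta-catenin genes wrm-1 and hmp-2 had none. The kinase gene mom-4, which activates LIT-1, had a shared peak 116 bp inside 1 end of the gene, with folds of 9.46 and 9.72. The other kinase gene of this group, tap-1, had none.

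The classical cadherin gene hmr-1 was the one of 5 polarity and cadherin genes with a peak. It lay 20089 bp inside the gene in the neuronal list, and its folds of 15.4 and 15.7 were the highest fold values among the 45 genes. The planar cell polarity gene prkl-1, a Prickle, had none. Among 8 targets and cofactors unc-37, a Groucho corepressor, had a peak, with folds of 12.9 and 14.1. With 13.5% of all protein-coding genes having a peak in either list, 1 of 8 and 1 of 5 are not results about these groups. The Hox genes mab-5, lin-39 and egl-5, known targets of Wnt signalling, had none. None of the 11 neuronal or 13 total peaks of these genes had its summit inside a noncoding gene.

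**Figure D4:**
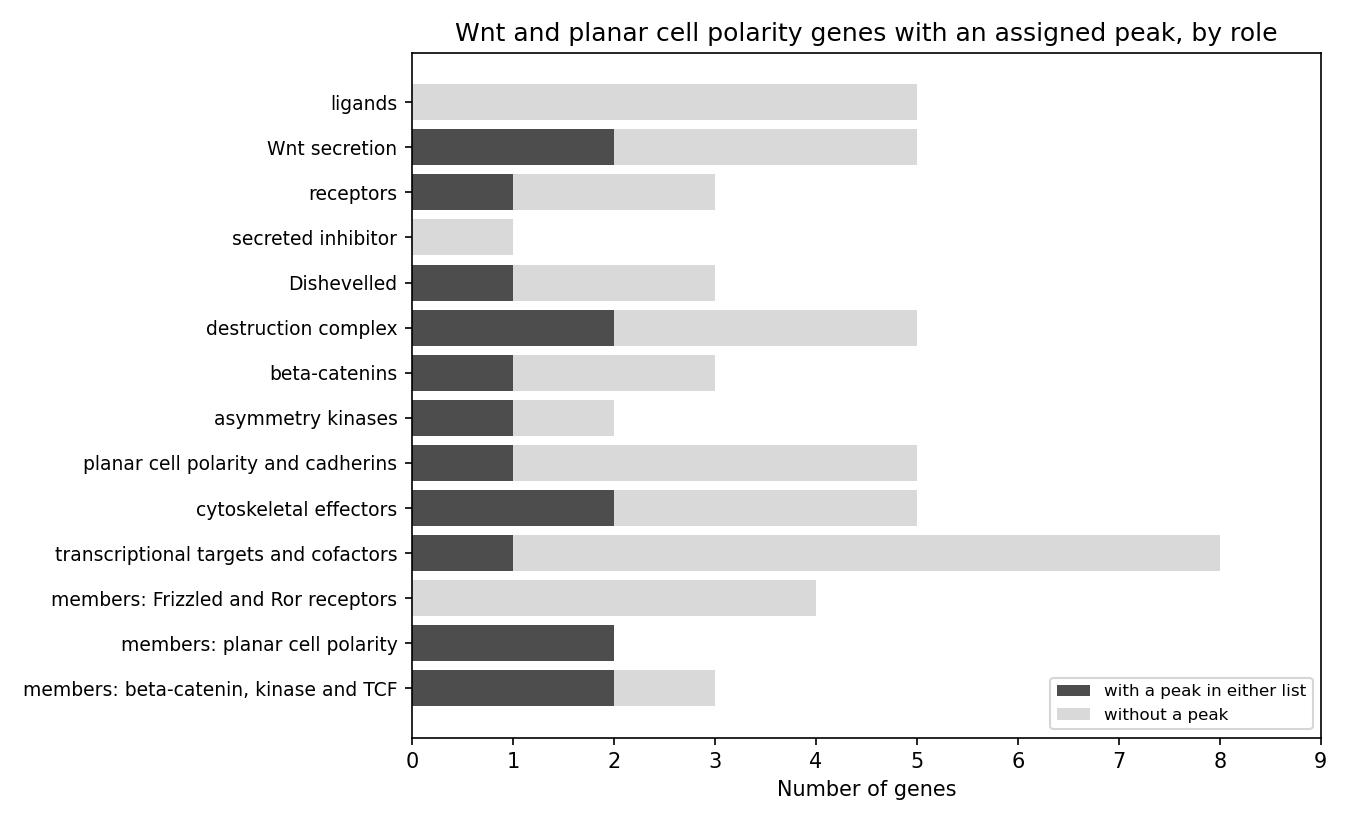
Number of genes with (dark) and without (light) an assigned peak in either list, for 11 groups of the 45 further pathway genes and 3 groups of the members. The 5 ligand genes and the 4 receptor members have no dark bar, and the 2 planar cell polarity members are dark throughout.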

How the data were processed

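The files used are 2 narrowPeak lists on build ce11. The submitters' processing notes name Bowtie2 2.2.6, MACS2, Picard, cutadapt 1.9.1, bedtools 2.26 and SAMtools 1.7, with no parameters. The way samples were combined, and any removal of duplicates or Tn5 shift, were not given in the sources used here. Each deposited score is a scaled reproducibility (IDR) value, with a threshold of 0.1 in the names of the lists. The deposited fold is a ratio to the local background, and the deposited −log10 p-value grows with depth.

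Genes came from RefSeq's WBcel235 table, the same sequence as ce11, which gives spans without strand or exons, so 5′ ends, exons and introns were not analysed here. Pileup and local background were solved from fold and p, assuming default MACS2 formulas; with a tolerance of 0.02, 99.8% of neuronal and 99.9% of total pileups were whole numbers. The recovery and the assignment were tested on simulated data. Python 3.11.15, numpy 2.4.6, scipy 1.17.1, pandas 2.3.3 and matplotlib 3.10.9 were used. The members, lists and alternatives were chosen with earlier results of these data known, and the bounds of 7.5 on fold, 2.5 on background and 3000 bp on depth in a gene after the members' values were seen. Named genes were all members, the further pathway genes with a peak other than some not reported here, examples of those without one, and the genes nearest to the peaks closest to a member. Planned motif counts need sequence and were not run, and no sequence is printed.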

Additional observations from a re-analysis of the deposited data

How the results depend on the processing

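No paired analysis was possible because each deposited list holds 1 value per peak for the whole group, and no replicate could be left out for the same reason. Of 65 results under alternatives, 46 stayed within 1.5 times the main count or 1 SD over the member peaks, 18 moved and 1 reversed. The reversed value was the median percentile difference of shared member peaks, -1.22 when ranked by pileup; the cause was not tested. With summits inside a gene span alone, 3 total member peaks were left, 0 of them in that list alone, at 2 members in the list labelled total and 2 in either list, and 3 of the 45 further genes had a peak. In the stronger 50% of each list by p-value, 1 neuronal and 1 total member peak were left, at 1 member, 0 in either list alone, and 6 further genes had a peak. With equal numbers of peaks 2 neuronal member peaks were without a partner. With genes of any kind, an alternative added after seeing the data, 3 total member peaks were left at 2 members, 0 of them in that list alone. The lists limit what can be said to peaks that passed the authors' threshold, and depth per sample is unknown.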
